A study of Mus musculus with 4 samples.

Results

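The genes described here are the 10 enzymes of the hexosamine pathway and of O-GlcNAc cycling that were listed by name: Gfpt1, Gfpt2, Gnpnat1, Pgm3, Uap1, Gnpda1, Gnpda2, Nagk, Ogt and Oga. Each was found by the RefSeq accession in its probe set identifier, and all 10 had 1 probe set, among 909 named genes and 1246 probe sets on the array. The data were 4 expression arrays of cultured VSMC, the smooth muscle of blood vessels, from wild-type mice. Every culture was held in osteogenic medium, which is used to turn such cells into bone-like ones. In 2 arrays the medium also held streptozotocin at 0.4 mM, and the other 2 arrays were the controls without it. Each arm held 1 array of the cell sample WT2 (replicate 1) and 1 array of the cell sample WTA (replicate 2), here called cultures. All 4 sample titles also carry "3w", which every group thus shares and which the labels do not explain. Strain, sex and animal age are not spelled out in the labels, which also do not say whether WT2 and WTA came from separate animals. The p-values therefore judge differences only against the spread between these samples, which may be technical.

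The hexosamine pathway turns a small part of the cell's glucose into UDP-GlcNAc, the donor from which sugar is put onto proteins, lipids and matrix chains. O-GlcNAc is a single sugar that Ogt sets on serines and threonines of nuclear and cytoplasmic proteins and that Oga takes off again, so the mark can come and go with nutrient supply. In vascular smooth muscle, raised O-GlcNAc has been linked to calcification in diabetes. Streptozotocin is a nitrosourea built on glucosamine, is toxic to pancreatic beta cells and is known to inhibit the Oga enzyme. The arrays measured RNA, not enzyme activity or the O-GlcNAc mark.

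The stretches before the transcription starts of 4 of these genes are shown. Gnpda2 and Ogt had the largest streptozotocin differences here, and those of Gfpt1 (0.037) and Pgm3 (-0.14) were smaller. Gfpt1 and Pgm3 are not the low end, since the smallest difference was that of Oga (0.018), whose stretch is not shown. They come from RefSeq (build GRCm38.p6), each written 5′ to 3′ on the gene's own strand and ending before the outermost annotated base of the gene. For Pgm3, Gnpda2 and Ogt the table's listed start lies further in, by 36, 28 and 40 bases, which are not shown. Capitals mark 3 motifs on either strand: the CCAAT box, the GC box with the letters GGGCGG, and the short core that reads ACGTG.
Gfpt1: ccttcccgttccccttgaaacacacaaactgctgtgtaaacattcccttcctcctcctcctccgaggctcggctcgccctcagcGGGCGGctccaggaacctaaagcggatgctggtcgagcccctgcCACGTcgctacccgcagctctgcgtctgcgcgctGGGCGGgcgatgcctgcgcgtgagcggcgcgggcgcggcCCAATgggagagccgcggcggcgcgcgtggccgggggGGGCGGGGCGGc
Pgm3: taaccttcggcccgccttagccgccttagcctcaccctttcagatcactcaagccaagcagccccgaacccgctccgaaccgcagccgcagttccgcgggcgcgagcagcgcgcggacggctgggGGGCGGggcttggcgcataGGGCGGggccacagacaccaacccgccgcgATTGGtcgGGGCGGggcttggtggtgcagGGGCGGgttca
Gnpda2: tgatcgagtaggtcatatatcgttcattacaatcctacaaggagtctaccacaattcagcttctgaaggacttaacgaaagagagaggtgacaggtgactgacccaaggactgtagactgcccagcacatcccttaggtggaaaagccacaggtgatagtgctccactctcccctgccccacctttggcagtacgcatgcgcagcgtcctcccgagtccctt
Ogt: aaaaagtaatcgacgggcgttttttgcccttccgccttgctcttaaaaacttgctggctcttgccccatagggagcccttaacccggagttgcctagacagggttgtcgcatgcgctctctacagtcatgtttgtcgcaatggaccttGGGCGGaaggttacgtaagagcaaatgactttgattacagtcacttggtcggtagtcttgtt
The Gfpt1 stretch is chr6:87042596-87042845 on the plus strand, and it holds 4 GC boxes, of which 2 overlap at its end, 1 CCAAT and 1 ACGTG. The Pgm3 stretch is chr9:86571879-86572092 on the minus strand, with 4 GC boxes and 1 CCAAT. The Gnpda2 stretch is chr5:69592333-69592554 on the minus strand and holds none of the 3 motifs, and the Ogt stretch, chrX:101639801-101640010 on the plus strand, holds 1 GC box. Promoter entries were matched for 8 of the 10 genes, Gnpnat1 and Gnpda1 being the others. Over the 250 bases before the listed start, which include those bases not shown, the GC content was 72.0% for Gfpt1, 71.6% for Pgm3 and 67.2% for Uap1, with 4, 5 and 5 GC boxes. It was 64.4% for Oga and 64.0% for Nagk, with 0 and 1 boxes, and 57.6% for Gfpt2 with 2. For Gnpda2 it was 51.6% with 0 boxes, and for Ogt 49.6% at one listed start and 48.8% at the other, with 1 box at each. Of 32851 windows of this length in the table, 32.7% held a GC box, 33.9% held CCAAT and 16.6% held ACGTG, and their median GC content was 52.4%. The promoters with 4 or 5 boxes were those of Gfpt1, Pgm3 and Uap1. Gfpt2, also a synthesis step, had 2, and Gnpnat1 could not be read. In GC content Oga, Nagk and Gfpt2 lay above the median too, and the Ogt and Gnpda2 promoters lay near it. These are descriptions of sequence, and no binding or promoter activity was measured.

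On the log2 scale the 4 medians were 5.83 to 5.87, the lower quartiles 4.39 to 4.40 and the upper quartiles 8.58 to 8.69. Across probe sets the WTA arrays correlated with each other at 0.997 and the WT2 arrays at 0.988. The WT2 control correlated with the treated and control WTA arrays at 0.977 and 0.982, and the treated WT2 array at 0.985 and 0.988. Each difference within WT2 uses that control. A probe set's brightness depends on its probes as well as on its RNA. The values thus give each gene's place among the probe sets of the array and not an order of RNA amounts between genes. Nagk, Gfpt2, Oga, Gnpda2 and Uap1 stood in the upper part of the array, at the 91.4th, 90.7th, 87.6th, 84.8th and 83.2nd percentile of all probe set means. Gnpda1 and Ogt stood at the 65.7th and 64.1th, Gfpt1 at the 56.0th and Gnpnat1 at the 51.0th percentile. Pgm3 was the dimmest, at the 41.7th percentile, where background makes up more of the value and differences are compressed. All 10 probe sets thus lay above the lower quartile of every array, which is not a detection limit. No detection calls were used, so these places do not show that the dimmer genes, Pgm3, Gnpnat1 and Gfpt1, were expressed. The probe sets of Ogt and Oga have an s in their identifiers, which can mean that several transcripts share their probes.

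**Figure D1:**
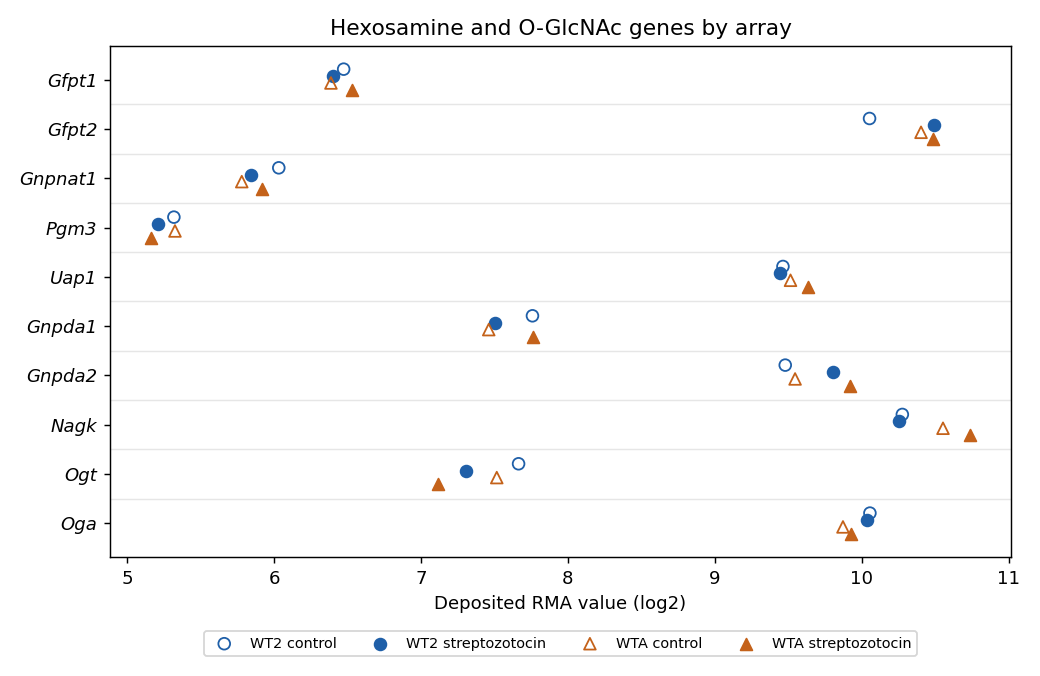
Deposited log2 RMA value of each gene (rows, in pathway order) on each of the 4 arrays; open symbols are controls, filled symbols streptozotocin, circles WT2 and triangles WTA. For Ogt and Pgm3 both filled symbols lie to the left of both open ones, and for Gnpda2 and Gfpt2 to the right. The arms did not overlap for 24.6% of all probe sets. Values are not comparable between rows.

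The streptozotocin comparison asked whether RNA of these enzymes differs when the compound is added to cells in osteogenic medium. Ogt was lower and Gnpda2 higher with streptozotocin in both cultures, by about the same size in each in the deposited values. The mean differences of the other 8 genes were smaller. None of the 10 passed the test: limma found 0 of 10 at an adjusted p under 0.05, beside 0% of all 1246 probe sets. At an unadjusted p under 0.05 limma gave 2 of the 10, Ogt and Gnpda2, beside 2.01% of all probe sets (25). When each culture's treated array was paired with its control through a replicate block, the counts were again 0 of 10 and 0% at the adjusted level, and 2 of 10 beside 6.42% (80 probe sets) at the unadjusted level, the same genes Ogt and Gnpda2. The median difference over the 10 genes was 0.030 on the log2 scale, and over all probe sets -0.0081. Of the 10 genes, 2 were higher in both cultures and 2 lower in both, and 6 had opposite signs. Over all probe sets 22.6% were higher in both, 28.5% lower in both and 47.7% opposite. The 6 genes with opposite signs were all lower in WT2 and higher in WTA, beside 26.8% of all probe sets. The reverse held for 0 of the 10, beside 20.9%. After quantile normalization Uap1, Nagk and Oga were higher in WT2 too (0.041, 0.0080 and 0.020), so the counts of the 10 depend on the processing.

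Ogt, the only enzyme that adds O-GlcNAc to nuclear and cytoplasmic proteins, stood at 7.66 in the WT2 control and 7.31 in WT2 with streptozotocin, and at 7.52 and 7.11 in the corresponding WTA arrays (log2). Both treated arrays lay below both control arrays, so the groups did not overlap. The mean was 7.59 ± 0.10 in controls and 7.21 ± 0.14 with streptozotocin (SD, n = 2 each). The difference of -0.38 (limma SE 0.12, 95% interval -0.73 to -0.034, adjusted p = 1) corresponds to a level 0.769 times that of control. It was -0.36 in WT2 and -0.40 in WTA. With the replicate block the interval was -0.65 to -0.11 and limma's adjusted p 0.670. By size the Ogt difference ranked 92 among the 1246 probe sets, and 21 probe sets (1.69%), Ogt included, were at least as far down as its smaller difference in both cultures.

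Oga, the glycosidase that removes the mark, stood at 10.06 and 10.04 in the WT2 control and treated arrays and at 9.87 and 9.93 in those of WTA. The arms overlapped, with a difference of 0.018 (limma SE 0.11, 95% interval -0.31 to 0.34, adjusted p = 1). Ogt minus Oga within an array was -2.39 and -2.36 in the WT2 and WTA controls and -2.73 and -2.81 with streptozotocin, a change of -0.34 in WT2 and -0.46 in WTA. An exact two-sided permutation test over the 4 arrays gave p = 0.333, the smallest that 2 against 2 arrays allow. After Benjamini-Hochberg adjustment over the 3 within-array pairs compared it was 0.500. The test leaves out the pairing by culture and could not give a small p, so it cannot decide whether any of these 3 measures changed.

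Gnpda2 is 1 of 2 deaminases that turn glucosamine phosphate back into fructose phosphate, against the direction of synthesis. Its log2 value was 9.48 in the WT2 control and 9.80 with streptozotocin, and 9.55 and 9.92 in WTA. Both treated arrays lay above both controls. The means were 9.51 ± 0.047 and 9.86 ± 0.083 (SD, n = 2 each), a difference of 0.35 (limma SE 0.095, 95% interval 0.079 to 0.62, adjusted p = 1) or 1.28-fold. The differences within the cultures were 0.33 in WT2 and 0.38 in WTA. As many as 20 probe sets (1.61%), Gnpda2 included, were at least as far up as its smaller difference in both cultures. With the replicate block limma's adjusted p was 0.709.

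Gnpda1, the other deaminase, had opposite signs in the cultures. Its values were 7.76 and 7.50 in the WT2 control and treated arrays and 7.46 and 7.76 in those of WTA, so the difference was -0.26 in WT2 and 0.30 in WTA, with a mean of 0.022 (95% interval -0.46 to 0.50). Gnpda2 minus Gnpda1 within an array was 1.72 and 2.08 in the controls of WT2 and WTA. With streptozotocin it was 2.30 and 2.16 (exact two-sided permutation p = 0.333, again the smallest possible, adjusted 0.500). The treated arrays lay above both controls on this measure too, but the change was 0.58 in WT2 and 0.076 in WTA. In WT2 both genes added to that change, Gnpda2 upward by 0.33 and Gnpda1 by -0.26, while in WTA both were higher with streptozotocin.

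Gfpt1 and Gfpt2 are the amidotransferases that start the pathway by moving an amino group onto fructose phosphate, and they set its rate. Gfpt2 stood at 10.05 in the WT2 control, against 10.40 in the WTA control and 10.49 in both treated arrays. The difference was 0.44 in WT2 and 0.085 in WTA, with a mean of 0.26 (limma SE 0.15, 95% interval -0.18 to 0.70, adjusted p = 1). The arms did not overlap, but the size rests on the low WT2 control: with that array left out the difference was 0.086. Gfpt1 stood at 6.47 and 6.40 in the WT2 control and treated arrays and at 6.39 and 6.53 in those of WTA. Its arms overlapped, with a mean difference of 0.037 (95% interval -0.25 to 0.32) that turned to -0.015 after quantile normalization. Gfpt2 minus Gfpt1 changed by 0.51 in WT2 and -0.062 in WTA (exact two-sided permutation p = 0.667, adjusted 0.667).

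The 3 enzymes that carry the route on to UDP-GlcNAc showed small differences. Of these, Pgm3 and Gnpnat1 lay at only the 41.7th and 51.0th percentile of all probe set means, and low values can compress differences. Gnpnat1, which acetylates glucosamine phosphate, had values of 6.03 and 5.84 in the WT2 control and treated arrays and 5.78 and 5.92 in WTA, a mean difference of -0.025 (95% interval -0.39 to 0.34). Pgm3, the mutase that shifts the phosphate to the position the last step needs, stood at 5.32 and 5.21 in WT2 and at 5.33 and 5.16 in WTA. Its treated arrays lay below both controls, by a mean of -0.14 (limma SE 0.082, 95% interval -0.37 to 0.10, adjusted p = 1), with -0.11 in WT2 and -0.16 in WTA. Uap1, the pyrophosphorylase that makes UDP-GlcNAc itself, stood at 9.46 and 9.44 in WT2 and at 9.51 and 9.64 in WTA, a mean difference of 0.051 (95% interval -0.26 to 0.36). Nagk, the kinase that returns free GlcNAc from degraded sugar chains to the route, stood at 10.28 and 10.25 in WT2 and at 10.55 and 10.74 in WTA, a mean difference of 0.080 (95% interval -0.55 to 0.71). The intervals of Gnpnat1, Uap1 and Nagk all include 0, and changes of a size within them are not excluded by 4 arrays. Larger changes could go uncalled as well. At the adjusted level limma called 0 of 1246 probe sets, whose differences ran from -2.81 to 1.66. With the replicate block the interval of Nagk was -0.23 to 0.39.

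**Figure D2:**
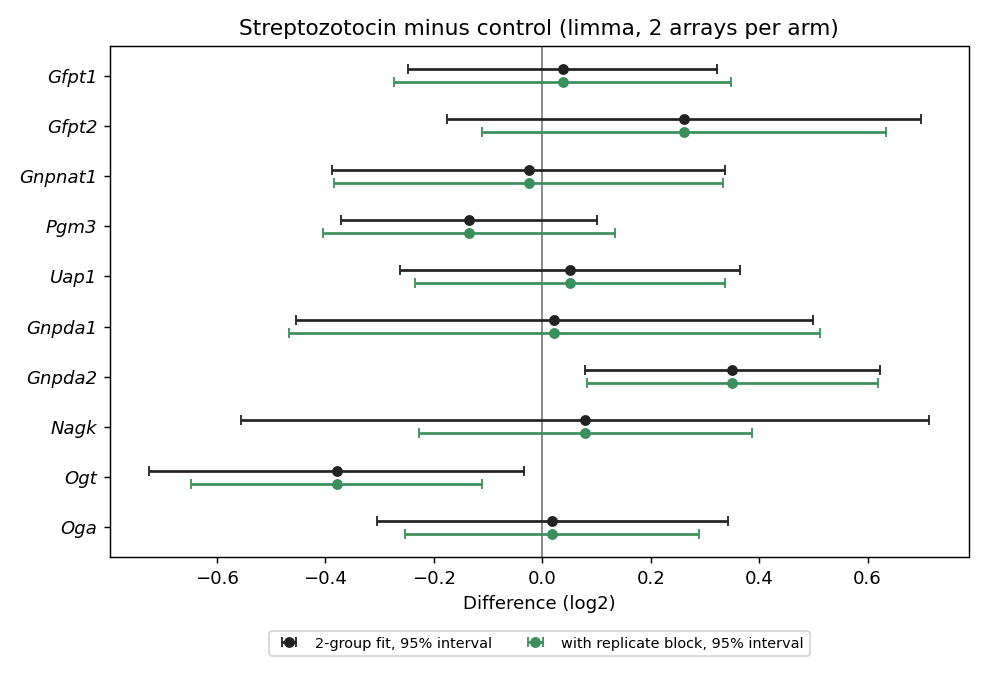
Streptozotocin minus control for each gene on the log2 scale (points) with limma's 95% interval, without (black) and with (green) the replicate block, from 2 arrays per arm. The intervals of Ogt (below 0) and Gnpda2 (above 0) leave out 0 in both fits before any adjustment for 1246 tests; the other 8 include it.

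In 4 of the 10 genes the treated and control arrays did not overlap, Ogt and Pgm3 downward and Gnpda2 and Gfpt2 upward. Over all probe sets the share was 24.6%, with 13.8% downward and 10.8% upward. No gene of the 10 reached a 1.5-fold difference in either culture, where 7.30% of all probe sets did so in WT2 and 2.33% in WTA. The SD of the differences over the 10 genes was 0.244 in WT2 and 0.223 in WTA. Over all probe sets the SD was 0.402 in WT2, wider than the 0.220 in WTA.

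**Figure D3:**
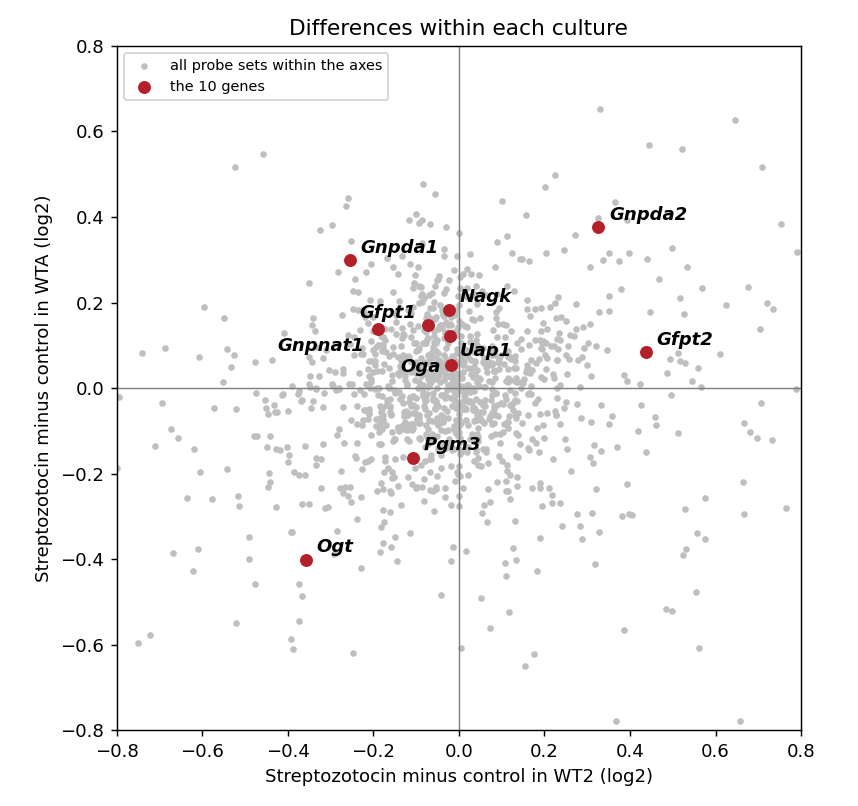
Streptozotocin minus control in WT2 (x) and in WTA (y), log2 scale, 1 array per arm in each culture; grey points are the 1189 probe sets within ±0.8 on both axes (57 lie outside) and red points the 10 genes. Ogt sits at -0.36 and -0.40, Gnpda2 at 0.33 and 0.38, and 6 genes fall in the upper left, where the cultures had opposite signs.

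Markers of other cells were read beside these differences. Of 6 fibroblast markers, 3 were on the array (Pdgfra, Dcn and Lum), and all 3 had lower values with streptozotocin in both cultures, like Ogt. Their summed level, as log2 of the summed linear values, was 13.18 to 13.80 in controls and 12.81 to 13.34 with streptozotocin. Their part in the Ogt and Gnpda2 differences was not tested. VSMC also express these genes, and fewer cells of a type and less RNA per cell cannot be told apart in such samples. Of 10 smooth muscle markers only Mcam had a probe set, at 4.85 to 4.98, below every array's median, so the labelled cell type could not be checked on its defining contractile genes. Of 8 osteogenic markers Bmp2 alone had a probe set, at 3.86 to 4.06, below the lower quartile of every array. Whether the cells had become bone-like could thus not be checked either. The 7 leukocyte markers on the array, of 14 listed, had a median difference of 0.015 and a summed level of 8.30 to 8.44 in controls and 8.25 to 8.60 with streptozotocin. Adgre1, a defining macrophage gene, lay at 2.79 to 3.16, below the lower quartile of every array. Csf1r, a macrophage growth factor receptor, was the brightest of them at 7.40 to 7.92, and was lower with streptozotocin in WT2 (-0.26) and higher in WTA (0.45). The 6 endothelial markers on the array, of 12 listed, had a median difference of -0.037 and a summed level of 10.87 to 11.35 in controls and 10.88 to 11.41 with streptozotocin. The list was mixed: Pecam1 and Sele lay below the lower quartile of every array, while Cd34 stood at 8.93 to 10.46 and Thbd at 8.63 to 10.57. Thbd (0.60) and Esm1 (0.41) were higher with streptozotocin in both cultures and Cd34 (-0.47) lower in both. The part of these markers in the differences above was not tested.

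The genes that feed the pathway or use UDP-GlcNAc were read from a list of 36, of which 23 were on the array. None of the 23 passed limma's test at an adjusted p under 0.05, beside 0% of all probe sets, and 1, Slc35a3, had an unadjusted p under 0.05, beside 2.01% of all. Their median difference was 0.034, with 6 genes higher in both cultures, 6 lower in both and 11 opposite, where the shares over all probe sets were 22.6%, 28.5% and 47.7%. Slc35a3, the transporter that carries UDP-GlcNAc into the Golgi, stood at 5.62 and 5.10 in the WT2 control and treated arrays and at 5.44 and 5.19 in WTA. The difference was -0.38 (limma SE 0.11, adjusted p = 1) with no overlap, beside 24.6% of all probe sets without overlap. Its mean was low, at the 43.6th percentile of all probe set means. Nans, a synthase of sialic acid, which is made from UDP-GlcNAc, was the next on that side at -0.12. On the other side Ext1, a polymerase of heparan sulfate that uses UDP-GlcNAc, had a difference of 0.46, which was 0.72 in WT2 and 0.20 in WTA. Has2, a hyaluronan synthase that draws on the same donor, had the largest difference of the list, 0.85, but it was 2.20 in WT2 and -0.50 in WTA. Uap1l1, the close relative of Uap1 and outside the rule for named genes, was picked after its values were seen: it differed by -0.52 in WT2 and 0.52 in WTA.

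**Figure D4:**
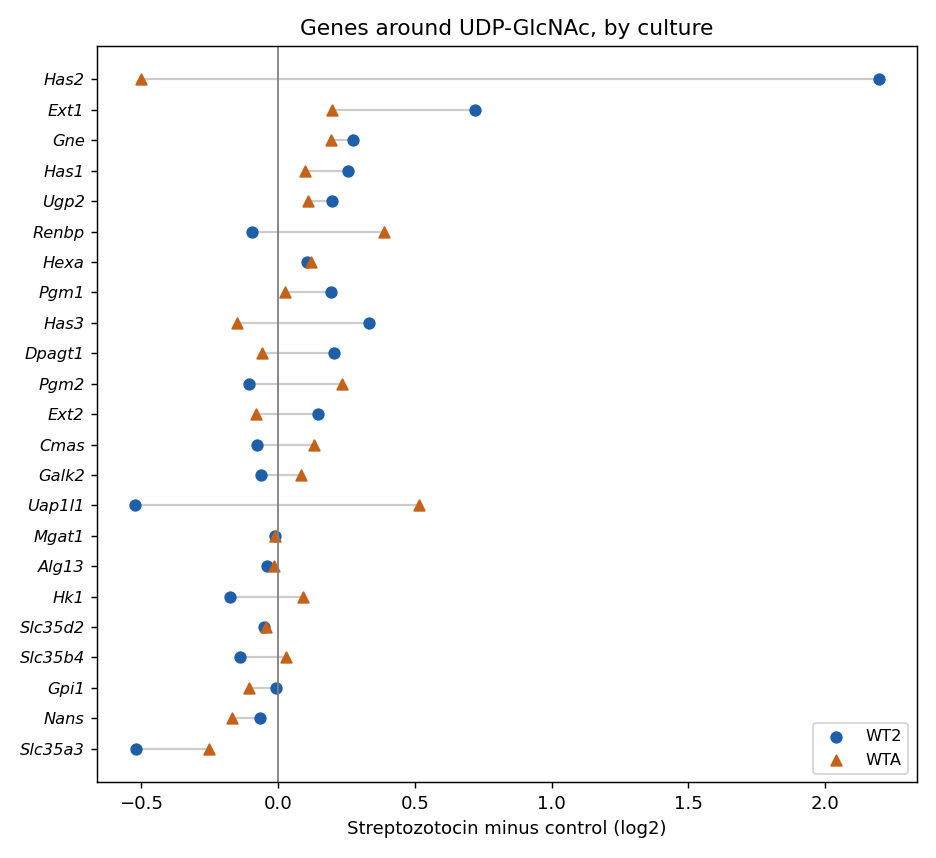
Streptozotocin minus control (log2) in WT2 (circles) and WTA (triangles) for the 23 genes around UDP-GlcNAc that were on the array, ordered by their mean difference, 1 array per arm in each culture. Slc35a3 is lowest (-0.52 and -0.25), Ext1 is positive in both (0.72 and 0.20), and Has2 and Uap1l1 have opposite signs in the cultures.

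The genes whose pattern over the 4 arrays lay nearest to that of Ogt, by Euclidean distance of log2 values from each probe set's mean among 909 named genes, were Gpc6, Gpc2 and Ncstn (distances 0.079, 0.0996 and 0.11). Gpc6 and Gpc2 are glypicans, heparan sulfate proteoglycans of the cell surface, and Ncstn, nicastrin, is a subunit of gamma-secretase. Gpc6 differed by -0.37 in WT2 and -0.46 in WTA, Gpc2 by -0.23 and -0.42, and Ncstn by -0.35 and -0.27. They were chosen for this likeness, so their values are a description.

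The culture comparison asked how far the 2 cell samples differ in these genes whatever the treatment. Nagk had the largest difference: its WT2 values, 10.28 in the control and 10.25 with streptozotocin, both lay below its WTA values, 10.55 and 10.74. The mean was 10.26 ± 0.017 in WT2 and 10.64 ± 0.13 in WTA (SD, n = 2 each), a difference of 0.38 (limma SE 0.11, 95% interval 0.073 to 0.69, adjusted p = 0.219), which did not pass the test. None of the 10 genes passed, beside 2.25% of all probe sets (28). That background depends on the setting: it was 13 probe sets in a fit with the culture alone, 8 after quantile normalization, 2 of the 623 above the median level and 49 with a robust fit. With the culture alone and either WTA array left out it was 0. At an unadjusted p under 0.05 limma gave 1 of the 10, Nagk, beside 16.9%. The cultures did not overlap for 3 of the 10 genes, Nagk and Uap1 (0.12) higher and Oga (-0.15) lower in WTA, beside 49.0% of all probe sets. Ogt differed by -0.17 between the cultures (95% interval -0.44 to 0.098) and Gfpt2 by 0.17 (95% interval -0.20 to 0.55). For Gfpt2 that came from the controls, 0.35 apart, while the treated arrays were -0.0018 apart. Markers of other cell types differed between the cultures as well. WTA minus WT2 was 4.93 for Esm1, 1.33 for Thbd and 1.22 for Emcn, and it was -1.07 for Cd34 and -0.82 for Pdgfra, and limma's adjusted p was under 0.05 for Esm1 and Cd34. The median was 0.68 over the 6 endothelial, -0.43 over the 3 fibroblast and 0.0038 over the 7 leukocyte markers, and 0.0014 over the 10 genes. The part of these markers in the Nagk difference was not tested.

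The patterns nearest to Nagk were those of Tenm4, B3gnt2 and Cmas (distances 0.060, 0.062 and 0.069), of which Cmas activates sialic acid for transfer.

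**Figure D5:**
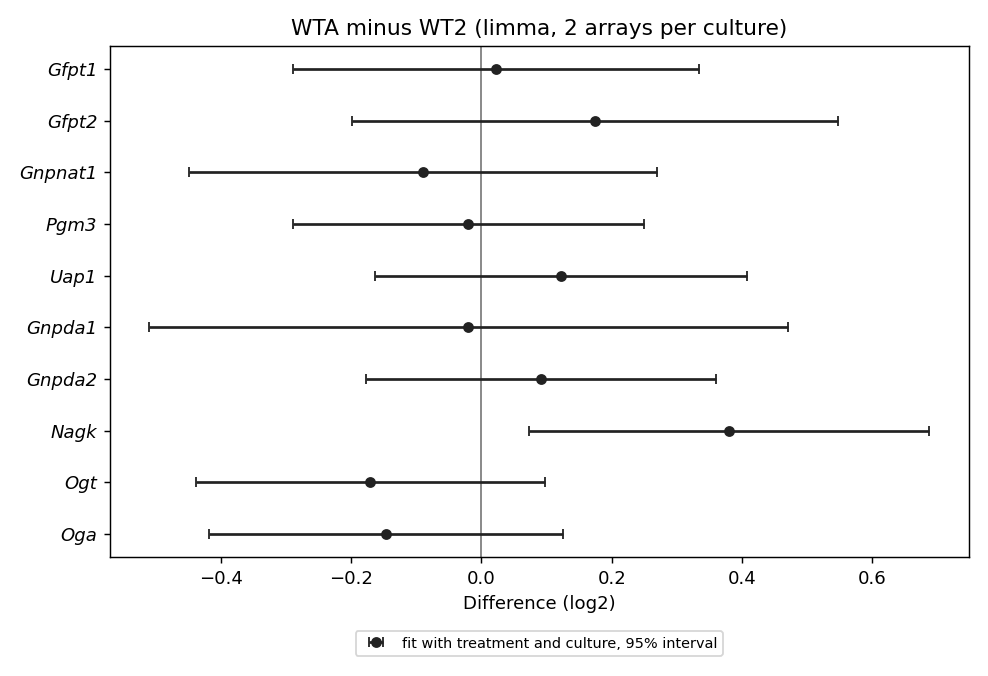
WTA minus WT2 for each gene on the log2 scale (points) with limma's 95% interval, from a fit with treatment and culture on 2 arrays per culture. Nagk (0.38, interval 0.073 to 0.69) is the only one whose interval leaves out 0 before adjustment.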

How the data were processed

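RNA was extracted with Trizol and biotin-labelled cRNA was prepared by an Affymetrix protocol, per the labels' protocols. The authors deposited RMA values on the log2 scale, 1 per probe set and array. The method is named in the submitters' processing notes, while version and settings were not given in the sources used here. By default RMA equalises the distributions of all arrays, which would hide a general shift. No scanner files were used. Precision is limited by there being 4 arrays.

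Probe sets were named through RefSeq accessions without versions (assembly GRCm38.p6, names only): 963 of 1246 had 1 symbol and 283 none. Oga was formerly Mgea5. limma 3.58.1 in R 4.3.3 (lmFit, eBayes, two-sided) compared the 2 arrays per arm without a block, with 2 residual and 1.68 prior degrees of freedom. The culture term came from a fit with treatment and culture, with 1 residual degree of freedom. P-values were adjusted by Benjamini-Hochberg over 1246 probe sets, threshold 0.05. Both arms hold the same 2 named cell samples, so the replicate numbers pair the arrays, and same-numbered arrays deviated together (correlation 0.600 across probe sets). With the block, the p-values set the mean difference against how unlike the cultures' differences were, on 1 residual and 2.73 prior degrees of freedom. The prior part is a spread shared over all probe sets, so most of that error is not the gene's own. Within a culture, with 1 array per arm, there is no test. The genes and lists were chosen with earlier results of these data known. All 10 genes were named, and of the list around UDP-GlcNAc (highest-mean probe set per gene) the 2 largest differences in each direction. For Ogt and Nagk, the genes with the largest treatment and culture differences, the 3 nearest patterns were named. The fits were tested on simulated data. The same results were computed with the replicate block, without each array, with median centring, quantile normalization, only probe sets above the median level, an intensity trend and a robust fit, and, for the culture, no treatment term. Added after seeing the data were 1 named probe set per gene, and the culture alone with each array left out.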

Additional observations from a re-analysis of the deposited data

Results flagged for a closer look

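In the deposited values, the streptozotocin difference was positive in WTA and negative in WT2 for 6 of the 10 genes. This contrast was not tested, since a culture holds 1 array per arm, and 26.8% of all probe sets had these signs, while 20.9% had the reverse. The gap, WTA minus WT2, was 0.56 for Gnpda1 (-0.26 and 0.30), 0.33 for Gnpnat1 (-0.19 and 0.14) and 0.22 for Gfpt1 (-0.072 and 0.15). It was 0.21 for Nagk (-0.024 and 0.18), 0.14 for Uap1 (-0.020 and 0.12) and 0.074 for Oga (-0.019 and 0.055). For these last genes the sign in WT2 depended on the processing. After quantile normalization it was positive for Nagk (0.0080), Uap1 (0.041) and Oga (0.020), as in WTA.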

How the results depend on the processing

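Under the replicate block, median centring, quantile normalization, only probe sets above the median level, an intensity trend, a robust fit and 1 named probe set per gene, limma's streptozotocin counts were 0 probe sets and 0 of the 10 genes (0 of 9 above the median level, since Pgm3 lay below it). Across those settings the mean difference ranged from -0.38 to -0.37 for Ogt (adjusted p 0.670 to 1) and from 0.35 to 0.39 for Gnpda2 (adjusted p 0.709 to 1). By culture the sizes moved more for Ogt, to -0.46 in WT2 and -0.30 in WTA after quantile normalization. Gnpda2 was then at 0.37 and 0.40. Of the mean differences, only that of Gfpt1 turned, to -0.015 after quantile normalization. Under the same setting the differences within WT2 turned for Uap1 (-0.020 to 0.041), Nagk (-0.024 to 0.0080) and Oga (-0.019 to 0.020). With each array left out the count was 0 too, but 1 arm then holds a lone array, assumed to vary like the other arm, so that count says nothing about stability. By value, Ogt then ranged from -0.48 to -0.28, Gnpda2 from 0.29 to 0.41, Gfpt2 from 0.086 to 0.44 and Pgm3 from -0.16 to -0.11. The direction turned for the other 6: Gfpt1 (-0.028 to 0.10), Gnpda1 (-0.13 to 0.17), Gnpnat1 (-0.15 to 0.10), Nagk (-0.16 to 0.32), Oga (-0.073 to 0.11) and Uap1 (-0.045 to 0.15). Leaving out 1 array unbalances the cultures.

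For the culture, 0 of the 10 genes (0 of 9 above the median level) passed under the settings with a test, while the count over all probe sets, 28, was 13 with the culture alone, 8 after quantile normalization, 2 among brighter probe sets and 49 with the robust fit. With the culture alone and 1 array left out it ranged from 0 to 18 (0 without either WTA array, 12 without the WT2 control and 18 without the treated WT2 array). WTA minus WT2 turned for Pgm3 (0.00097) and Gnpda1 (0.00081) after median centring, and for Gfpt1 (-0.0018) and Gnpda1 (0.040) after quantile normalization. With 1 array left out, no test is left in the fit with treatment, and the value is the difference within 1 arm. It turned for Gfpt1 (-0.087 to 0.13), Gfpt2 (-0.0018 to 0.35), Gnpda1 (-0.30 to 0.26), Gnpnat1 (-0.25 to 0.073) and Pgm3 (-0.047 to 0.0074). Where a value turned under a normalization, the cause was not tested.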
